A study of Rattus norvegicus with 2 samples.

Results

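The data were RNA-seq libraries of cortical neurons taken from Sprague Dawley rat embryos at day 18 (E18) and electroporated with a small interfering RNA (siRNA). One library came from neurons given the NC siRNA, the universal control duplex (the control library), and 1 from neurons given the CDH12 siRNA (the CDH12 siRNA library), a duplex against the transcript of the type II classical cadherin CDH12, each for 36 h. The genes described are 6 of the 16756 in the deposited tables and were chosen by name, with earlier results of these data known, as components of the neurite cytoskeleton and of neurite growth. They are Map2 (ENSRNOG00000011841), Mapt (ENSRNOG00000005133), Gap43 (ENSRNOG00000001528), Nefl (ENSRNOG00000013658), Nefm (ENSRNOG00000013916) and Nefh (ENSRNOG00000008716), and 0 of the 6 identifiers were absent from the tables. The study asked how knockdown of CDH12 shortens axons, and these transcripts encode structural and growth-associated proteins of neurites.

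Neurites are held up by microtubules and by neurofilaments. Microtubules are bound by proteins that sort to different neurites, MAP2 to dendrites and the cell body and tau, the product of Mapt, mainly to axons. Neurofilaments are intermediate filaments assembled from a light (Nefl), a medium (Nefm) and a heavy (Nefh) subunit. They are best known for setting the calibre of axons, and the heavy subunit is known to accumulate later in development than the light and the medium ones. GAP-43, the product of Gap43, is a membrane-bound phosphoprotein of the growth cone, the motile tip of a growing neurite, and its transcript is abundant in neurons that are extending axons.

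The control library held 15500488 reads assigned to genes and the CDH12 siRNA library 13699612. Levels are given as normalized counts, the reads of a gene divided by a scaling factor of its library, so that 1 read amounts to 0.944 normalized counts in the control library and 1.06 in the other. Each treatment had 1 library, so the differences below have no replicate check. The 95% intervals cover counting error only and take reads as independent molecules, which was not established. A difference between the libraries cannot be told apart from one between 2 cultures or 2 preparations, and in such bulk RNA fewer neurons and less RNA per neuron cannot be told apart either. The level of CDH12 itself was not analysed here, so the knockdown was not checked in these libraries. Levels of different genes are not ranked against each other, because transcript lengths were not used.

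All 6 transcripts were detected in both libraries, and the neurofilament light and medium chains stood lowest in the CDH12 siRNA library relative to the control. Nefl was lower by 32.1% and Nefm by 26.6% with the CDH12 siRNA. Mapt, Gap43 and Map2 were lower by smaller amounts, 12.1%, 11.1% and 6.39%. For Nefh the counting interval, on few reads, included no change.

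**Figure D1:**
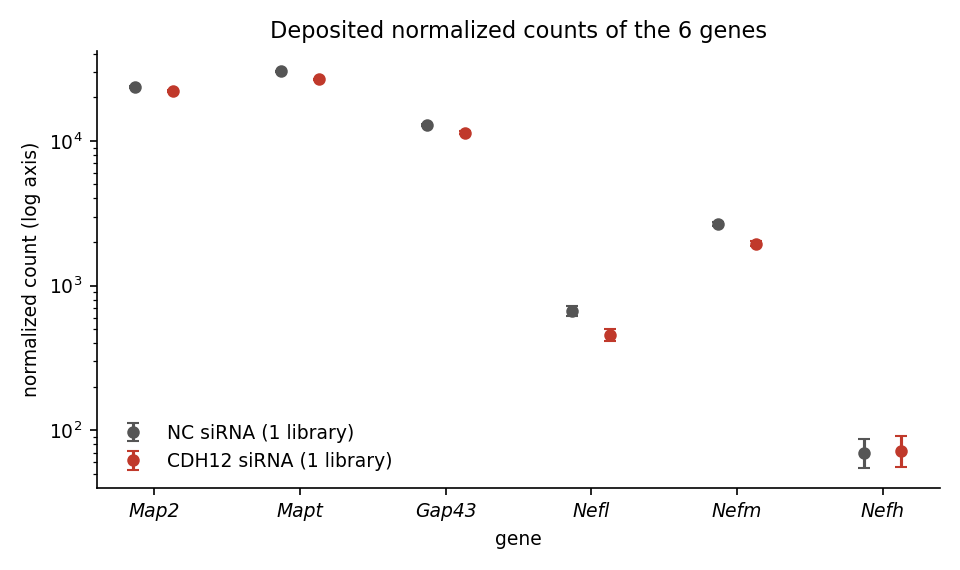
Normalized count of each gene (log axis) with the control NC siRNA (grey) and the CDH12 siRNA (red), 1 library each, with exact Poisson 95% intervals of the reads. The intervals of the 2 libraries are apart for Map2, Mapt, Gap43, Nefl and Nefm and overlap for Nefh, with 69.9 and 72.0.

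Of the microtubule-associated proteins, Map2 had 25032 control reads and 20885 reads in the CDH12 siRNA library, equal to 23632.8 and 22121.5 normalized counts. The log2 difference, taken throughout as CDH12 siRNA minus NC siRNA on the log2(normalized count + 1) scale, was -0.10 (counting interval from -0.12 to -0.07). Mapt had 32072 and 25125 reads, or 30279.3 and 26612.5 normalized counts, a log2 difference of -0.19 (interval from -0.21 to -0.16). Both were thus lower with the CDH12 siRNA, and both were among the transcripts with the most reads in these neurons. Mapt took 0.207% of all control reads and 0.183% of those of the CDH12 siRNA library, and Map2 took 0.161% and 0.152%. Both genes are used as markers of neurons, the labelled cell type, and each had more reads than 99.8% or more of the genes in both libraries, not corrected for length. Markers of other cell types were not analysed here.

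Gap43, the growth cone gene, had 13600 control reads and 10779 after the CDH12 siRNA. In normalized counts these were 12839.8 and 11417.2, a log2 difference of -0.17 (interval from -0.21 to -0.13). The difference of Gap43 was therefore close to that of Mapt.

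The neurofilament subunits had fewer reads, and the light and medium subunits had larger differences. Nefl, the light subunit, which filament assembly requires, had 708 control reads and 428 after the CDH12 siRNA. Its normalized count was 668.4 (Poisson interval from 620.1 to 719.5) and 453.3 (from 411.4 to 498.4), a log2 difference of -0.56 (interval from -0.74 to -0.39). Nefm, the medium subunit, had 2817 and 1844 reads. Its normalized count was 2659.5 (from 2562.2 to 2759.6) and 1953.2 (from 1865.0 to 2044.4), a log2 difference of -0.45 (interval from -0.53 to -0.36). In the RefSeq gene table of the rat assembly GRCr8, Nefl and Nefm both lie on chromosome 15 with 1 entry listed between them. Whether their location bears on their levels was not tested. Nefh, the heavy subunit, had 74 control reads and 68 after the CDH12 siRNA, equal to 69.9 and 72.0 normalized counts. Its log2 difference of 0.04 had an interval from -0.45 to 0.54, which holds no change and, just inside its lower limit, the difference of Nefm. By another method, the Wilson interval, it ran from -0.43 to 0.52, which leaves the difference of Nefm out. The ratio of Nefm to Nefh, given below, had a counting interval that included no change, so the depth barely separates them. Together the 3 subunits took 0.0232% of all control reads and 0.0171% after the CDH12 siRNA.

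None of the 6 genes passed 2-fold, the fold used as a threshold in the study's methods, where 1.92% of the 13317 genes that had 20 or more reads in both libraries together did so. Nor did any of the 6 pass 1.5-fold, which 6.17% of these genes did. Nefl came nearest, with a normalized count 1.47-fold higher in the control library. Of the genes with at least 1000 reads, 0.146% passed 1.5-fold. Shallow genes also made up most of those past 2-fold. Of these 256 genes, 31 had at least 100 reads, which each of the 6 genes had. The counting interval excluded no change for 5 of the 6 genes, all lower in the CDH12 siRNA library, and for 22.6% of all genes with at least 20 reads, with 12.4% lower. Among the 6152 genes with at least 1000 reads in both libraries together, which include those 5 genes, the interval excluded no change in 29.2%, with 16.9% lower. The median log2 difference was -0.18 over the 6 genes and -0.003 over the 13317 genes, of which 51.0% were lower at any size.

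The counting interval excluded no change for far more genes than its error rate allows, so each gene was also set beside the genes whose reads in both libraries together lay within 2-fold of its own. Nefm was lower than the central 95% of 2708 such genes, which ran from -0.23 to 0.17 on the log2 scale, and 3 of them (0.111%) had a log2 difference as low. Nefl was lower than the central 95% of 4653 such genes, from -0.33 to 0.27, and 14 of them (0.301%) were as low. These 2 neurofilament genes therefore stood apart from the bulk of genes of like depth. Among the 6152 deeper genes described above, 3 had a lower log2 difference than Nefl and 10 a lower one than Nefm.

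The deeper genes stood nearer to the bulk. Mapt, at -0.19, lay at the lower limit of the central 95% of 60 genes of like depth, from -0.18 to 0.15. Of these genes 2 (3.33%) were as low, so the limit rests on few genes. Gap43, at -0.17, lay within the range of 287 genes, from -0.20 to 0.15, with 12 of them (4.18%) as low. Map2, at -0.10, lay within the range of 84 genes, from -0.19 to 0.15, with 13 of them (15.5%) as low. Nefh lay near the middle of 2103 genes, from -0.73 to 0.73. On the deposited scaling the most deeply read genes leaned slightly lower. Their median log2 difference was -0.014 over the 448 genes with at least 10000 reads. Scaling by total reads raised every log2 difference by 0.012, so this lean depends on the scaling. The genes of like depth to Map2 and those of like depth to Mapt each had a median of -0.022.

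**Figure D2:**
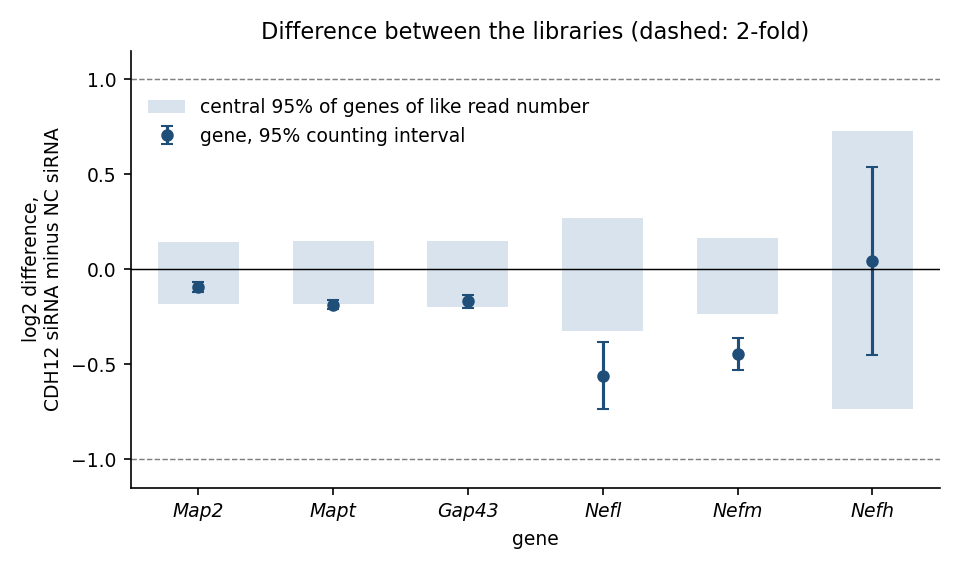
Log2 difference between the libraries (CDH12 siRNA minus NC siRNA) for each gene, as points with 95% counting intervals; the pale bars show the central 95% of all genes with reads within 2-fold of that gene's, and dashed lines mark 2-fold. Nefl (-0.56) and Nefm (-0.45) lie below their bars with their whole intervals, Mapt (-0.19) sits at the edge of its bar, and Map2, Gap43 and Nefh lie within theirs.

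**Figure D3:**
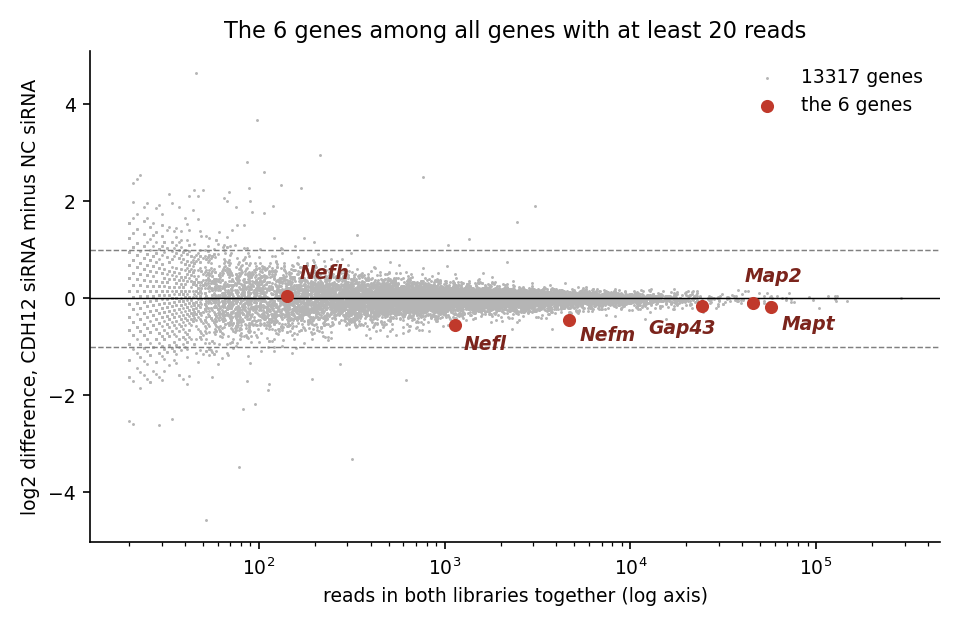
Log2 difference between the libraries against reads in both libraries together (log axis) for the 13317 genes with at least 20 reads (grey), with the 6 genes in red and dashed lines at 2-fold. The spread narrows with read number, and Nefl and Nefm lie at the lower edge of the cloud while Map2, Mapt and Gap43 lie at its deep end, slightly below 0.

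A ratio of 2 genes within a library does not depend on how the libraries are scaled, so the reads of the 6 genes were also compared as ratios in 15 pairs. As a background, the same change was taken over all combinations of a gene of like depth to the first and a gene of like depth to the second, a description chosen after the values were seen, in which each gene enters many combinations. Map2 had 8.89 reads per read of Nefm in the control and 11.3 after the CDH12 siRNA, a log2 change of 0.35 (counting interval from 0.26 to 0.44) where the central 95% of combinations ran from -0.25 to 0.25. For Map2 per Nefl the ratio was 35.4 and 48.8, a log2 change of 0.46 (from 0.29 to 0.64), with combinations from -0.34 to 0.33. The changes of Gap43 per Nefl (0.39), Mapt per Nefl (0.37) and Gap43 per Nefm (0.28) also lay above the central 95% of their combinations, and that of Mapt per Nefm (0.26) lay just inside, below an upper limit of 0.261. In all, 5 of the 15 pairs lay outside the central 95% of their combinations, each a ratio of Map2, Mapt or Gap43 to Nefl or Nefm. The 15 pairs reuse the same 6 genes and are not independent, so these 5 restate the low values of Nefl and Nefm given above.

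The other ratios lay within the range of their combinations. Mapt per Gap43 was 2.36 in the control and 2.33 after the CDH12 siRNA, a log2 change of -0.02 with a counting interval from -0.06 to 0.03. Nefl per Nefm was 0.251 and 0.232, a log2 change of -0.11 with an interval from -0.31 to 0.08. Map2 per Mapt changed by 0.09 (from 0.06 to 0.13) and Map2 per Gap43 by 0.07 (from 0.03 to 0.12), and 41.3% and 48.7% of combinations changed as far. Nefl per Nefh was 9.57 in the control and 6.29 after the CDH12 siRNA, a log2 change of -0.60 whose counting interval ran from -1.13 to -0.07. Combinations of like depth ran from -0.81 to 0.79, with 12.1% as far, so Nefl and Nefh did not differ beyond the scatter at the depth of Nefh. For Nefm per Nefh the change of -0.49 had an interval from -0.99 to 0.02, and 18.3% of combinations were as far.

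**Figure D4:**
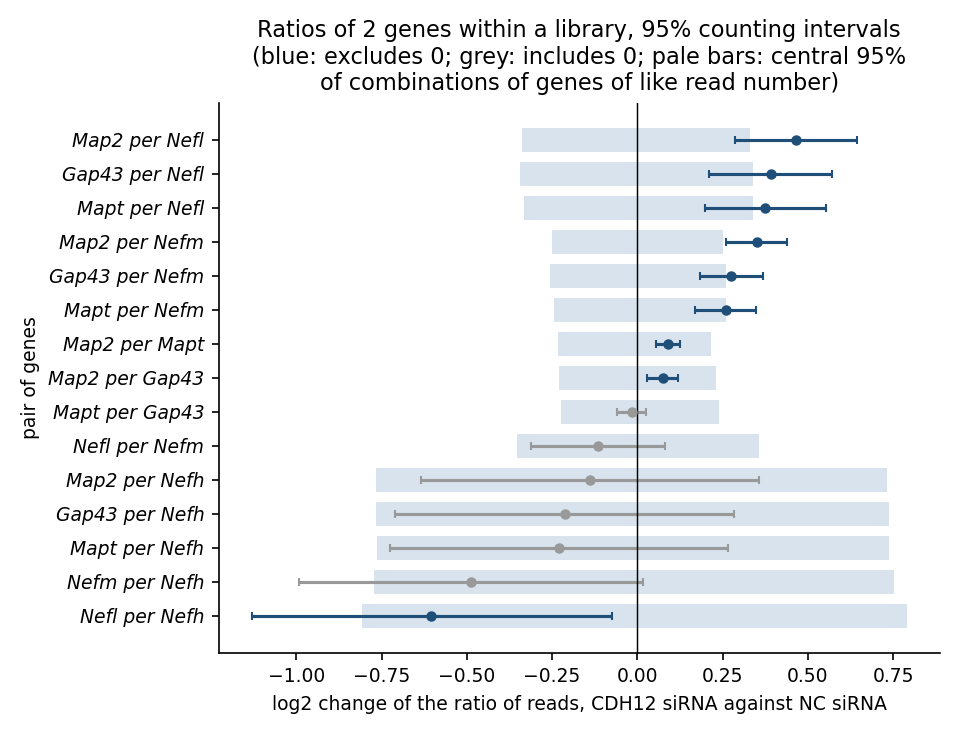
Log2 change, CDH12 siRNA against NC siRNA, of the ratio of reads of 2 genes within a library, for all 15 pairs, with 95% counting intervals (blue where the interval excludes 0, grey where it includes it) over the central 95% of combinations of genes of like depth (pale bars). Ratios of Map2, Mapt or Gap43 to Nefl or Nefm lie between 0.26 and 0.46, beyond their bars except for Mapt per Nefm, and every ratio to Nefh lies within its wide bar.

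A test of the reads themselves, the exact test of edgeR adjusted by Benjamini-Hochberg over all 16756 genes, compares these 2 libraries, not the treatments, and takes the spread from both libraries treated as 1 group. It called 39 genes (0.233%), 18 of them lower in the CDH12 siRNA library (0.107%), and of the 6 genes it called Nefm, with an adjusted p of 0.0113. Nefl, with a larger difference on fewer reads, had an adjusted p of 0.0868 in edgeR's exact test, and Map2, Mapt, Gap43 and Nefh each had an adjusted p of 1.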

How the data were processed

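Per the submitters' processing notes, reads were trimmed with cutadapt 1.15, counted per gene with HTSeq 0.9.1 and scaled with DESeq 1.30.0; the aligner, genome build, annotation and handling of reads with several matches are not given in the sources used here, and the paper's methods name another HTSeq version. The values the authors deposited are a normalized signal, the reads of a gene divided by the size factor of the library. The lowest value above 0 in a library was taken as 1 read and the others as multiples of it, and 100% of values came out whole within 0.01.

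Samples were grouped by the treatment in their labels. The members and lists were chosen with earlier results of these data known. The named genes are the 6 members. The tables give Ensembl identifiers without symbols, the gene table at hand paired 0 of 16756 with a symbol, and the symbols of the 6 genes came with the definition of the set. CDH12 itself, wider cytoskeleton and growth cone lists and cell type markers were therefore not analysed here.

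Differences used a pseudocount of 1, genes with at least 20 reads in both libraries together and Clopper-Pearson 95% intervals; pairs used conditional intervals of the odds ratio. Python 3.11.15, scipy 1.17.1 and edgeR 4.0.16 (TMM scaling, trended dispersion) in R 4.3.3 were used. The exact test and the single-gene intervals were tested on simulated data. Other scalings, pseudocounts, minimums and intervals were tried as alternatives. At these depths 3 reads correspond to 1.94e-05% (NC siRNA) and 2.19e-05% (CDH12 siRNA) of the reads.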

Additional observations from a re-analysis of the deposited data

How the results depend on the processing

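The log2 differences of the 6 genes kept their direction under TMM, total reads, upper quartile, no pseudocount, a pseudocount of 5 and edgeR's own estimate, and all 36 values stayed within the counting interval of the value reported. The Wilson interval changes only the limits, and it excluded 0 for the 5 genes for which the Clopper-Pearson interval did. Nefl ranged from -0.56 to -0.55, Nefm from -0.45 to -0.43, Mapt from -0.19 to -0.17, Gap43 from -0.17 to -0.16, Map2 from -0.10 to -0.08 and Nefh from 0.04 to 0.06. Against the deposited scaling, TMM, upper quartile and total reads raised every log2 difference by 0.001, 0.0096 and 0.012. These shifts are smaller than the distance from each of the 6 values to its interval limits. A change of scaling could therefore not move a value outside. The estimate of edgeR uses the TMM scaling again, so the 36 values are not separate checks. None of the 6 genes passed 2-fold or 1.5-fold under any other minimum, pseudocount or scaling run. The background did move: 256 genes past 2-fold became 1777 with no minimum, 31 with at least 100 reads and 141 with a pseudocount of 5, and 822 genes past 1.5-fold became 3219 with no minimum and 178 with at least 100 reads. A change of minimum alters which genes are counted. By its definition, a larger pseudocount makes the log2 differences of genes with low counts smaller. Depth limits Nefh, whose log2 interval ran from -0.45 to 0.54. The alternatives planned for wider gene lists were not run, since identifiers were not paired with symbols. No paired analysis was possible because only 1 library of either treatment was at hand, nor could a replicate be left out.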
